A study of Mus musculus with 10 samples.

Results

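The receptors described here are the genes of the deposited table whose symbol is Gpr followed by a number and at most 1 further letter, other than Gpr119. The table held 81 such genes among 19213. Of these, 32 reached an RPKM (reads relative to gene length and to the size of the library) of at least 1 in at least 2 libraries and were tested, out of 12700 genes tested in all. The other 49 did not pass that level and are given by their values only. The members closest to the limit on its upper side included Gpr137c and Gpr45, with a second-highest RPKM of 1.01 and 1.73. Those closest below it were Gpr183, Gpr97 and Gpr133, with 0.807, 0.773 and 0.742. Because 7 members passed through a single cell type (among them Gpr179 and Gpr153 through delta cells, Gpr45, Gpr98 and Gpr62 through beta cells, and Gpr137c through alpha cells), a difference for these 7 was partly set by the filter.

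Gpr symbols were given to G protein-coupled receptors, proteins that cross the membrane in a bundle of helices and pass an outside signal to G proteins inside the cell, at a time when their ligands were unknown. Many are still orphans, with no agreed ligand, and the group mixes several families: class A receptors, the adhesion receptors with long extracellular ends that bind matrix and neighbouring cells, class C receptors, and some Golgi or lysosomal membrane proteins that only carry the name. In islets, receptors coupled to G proteins adjust the release of insulin, glucagon and somatostatin by their cyclic AMP and calcium responses.

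RNA came from islet cells of adult mice that all carried a nuclear mCherry beta cell reporter (mIns1-H2b-mCherry) and a floxed YFP allele. YFP was switched on by Sst-Cre in delta cells (2 libraries, 1 per sex) or by Gcg-cre in alpha cells (3 libraries, 1 of them female), and beta cells (5 libraries, 3 of them female) were sorted by mCherry from these islets. Islets of 10 to 12 animals of a sex were pooled and kept overnight at 5.5 mM glucose before sorting, so each group is what a promoter-driven reporter marks in a pool, and individual animals cannot be followed. The labels do not tie libraries to islet pools or say that each library is a pool of its own, and the p-values therefore cover no more than library-to-library spread, some of which may be technical.

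Library totals recovered from the table lay between 16688097 and 26684086 reads. The reads of 7 hormone genes took 9.81% and 10.6% of the delta libraries, 17.6% to 31.8% of the beta libraries and 27.5% to 30.9% of the alpha libraries. The delta libraries held Gcg at 8.33% and 9.11% of the alpha mean, and the beta libraries at 0.182% to 1.12%. Delta, beta and alpha markers were highest in the libraries so labelled: all 5 tested delta markers were called higher in delta than in beta and in alpha cells, and all 8 alpha markers higher in alpha than beta cells. Of 9 beta markers, 9 were lower in alpha and 8 lower in delta than beta cells. Markers of other islet cells moved with the delta libraries too: 7 of the 8 alpha markers and all 3 markers of pancreatic polypeptide cells were higher in delta than beta cells. In RPKM the latter added up to 44165 to 44800 for delta, 808 to 1560 for beta and 9604 to 15248 for alpha libraries. Apart from a fit with the Gcg-based alpha share subtracted, the part of other islet cells in the delta differences was not tested. In sorted bulk samples, fewer cells that express a gene and less RNA of it per cell cannot be told apart.

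The RPKM of the 81 genes added up to 297 to 303 in the delta libraries, 231 to 269 in the beta libraries and 189 to 202 in the alpha libraries, with no overlap between the types. The median of all tested genes was also higher in delta than beta cells by 0.25 and than alpha cells by 0.26 on the log2(RPKM + 1) scale. An RPKM of at least 1 in every library of a type was reached by 27 members in delta, 22 in beta and 21 in alpha cells, and by 18 in all 10 libraries. Among the 32 that passed, the mean was highest in delta cells for 16, in beta cells for 8 and in alpha cells for 8. The ratio of the highest to the lowest type mean had a median of 2.16 and was at least 10 for 5 members, among them Gpr153, Gpr116, Gpr179 and Gpr158. It was under 2 for 15 members and lowest, at 1.14, for Gpr157, a receptor linked to the primary cilium of neural progenitors.

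A single gene, Gpr56 (Adgrg1 in GENCODE, chr8:94974751-95014217), made up 23.8% to 29.4% of the summed level of the passing members in a library. By the mean of the 3 type means it is followed by Gpr108, Gpr107, Gpr89, Gpr180 and Gpr137, of which Gpr108, Gpr107 and Gpr89 are known as membrane proteins of the Golgi and endosomes.

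The group was compared between cell types on the scale log2(RPKM + 1), and a gene was called at an adjusted p under 0.05. Against beta cells, 14 of the 32 receptors were higher in delta cells, 5 were lower and 13 were not called; among all tested genes 37.4% were called higher and 13.3% lower, 50.7% in either direction. The receptors' median difference was 0.36 and that of all tested genes 0.25. Called differences of at least 2-fold were found for 4 receptors higher (Gpr116, Gpr153, Gpr179 and Gpr75) and 2 lower (Gpr158 and Gpr62), against 12.2% and 3.85% of all genes, 16.1% in either direction. Libraries did not overlap for 21 of 32 receptors and for 62.8% of all genes. With libraries set to a common median ratio, which moved the median of all genes from 0.25 to -0.001, 9 were higher and 7 lower, where 3120 and 3096 of all 12700 genes were. Without delta replicate 1 the counts were 6 higher and 4 lower, and without delta replicate 2 they were 8 and 3. Over all genes these counts were 2335 and 938, and 3219 and 1072, against 4750 and 1692 with both libraries.

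Against beta cells, 9 receptors were higher in alpha cells, 11 were lower and 12 were not called, where 23.7% and 30.3% of all genes were called higher and lower and 54.0% in either direction. The median difference was -0.10 for the receptors and -0.02 for all genes. In RPKM + 1, 1 receptor was at least 2-fold higher (Gpr146) and 3 at least 2-fold lower (Gpr158, Gpr62 and Gpr45). Of all genes, 7.19% and 7.75% passed that limit, 14.9% in either direction. Other called receptors passed 2-fold in RPKM itself, such as Gpr179, Gpr137c, Gpr75 and Gpr173, higher in alpha cells, and Gpr98, with a beta to alpha ratio of 4.37. Groups did not overlap for 21 of 32, beside 50% of all genes.

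Between delta and alpha cells, 12 receptors were higher in delta, 4 were lower and 16 were not called, where 32.1% of all genes were called higher and 5.89% lower, 38% in either direction. The median difference was 0.22 for the receptors and 0.26 for all genes. In RPKM + 1, Gpr116, Gpr153 and Gpr108 were at least 2-fold higher in delta cells and no receptor at least 2-fold lower. Of all genes, 9.17% and 2.73% passed that limit, 11.9% in either direction. Other called receptors passed 2-fold in RPKM itself. Examples are Gpr179 and Gpr125 (delta to alpha ratios 3.02 and 2.28) and, on the lower side, Gpr137c (0.465). Libraries of the pair of types did not overlap for 26 of 32 receptors and 71% of all genes. Median-ratio scaling, which moved the median of all genes from 0.26 to -0.01, left 7 higher and 5 lower, with 1846 and 1324 of all genes. Of the 4 lower calls, 0 were made without delta replicate 1 and 1 without delta replicate 2, and of all genes 500 and 481 were then called lower, against 748 with both.

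Over the 3 comparisons, which share their libraries, 27 receptors were called at least once, where 74% of all genes were. All 7 members that passed through a single cell type are among the 27. All 3 comparisons called 4 receptors, Gpr179, Gpr125 and Gpr56 among them, and Gpr135, Gpr157, Gpr155, Gpr85 and Gpr27 were called in none. Of the 55 calls, 27 were made under every alternative processing in which the receptor was tested, 7 of them between delta and beta, 15 between alpha and beta and 5 between delta and alpha cells.

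**Figure D1:**
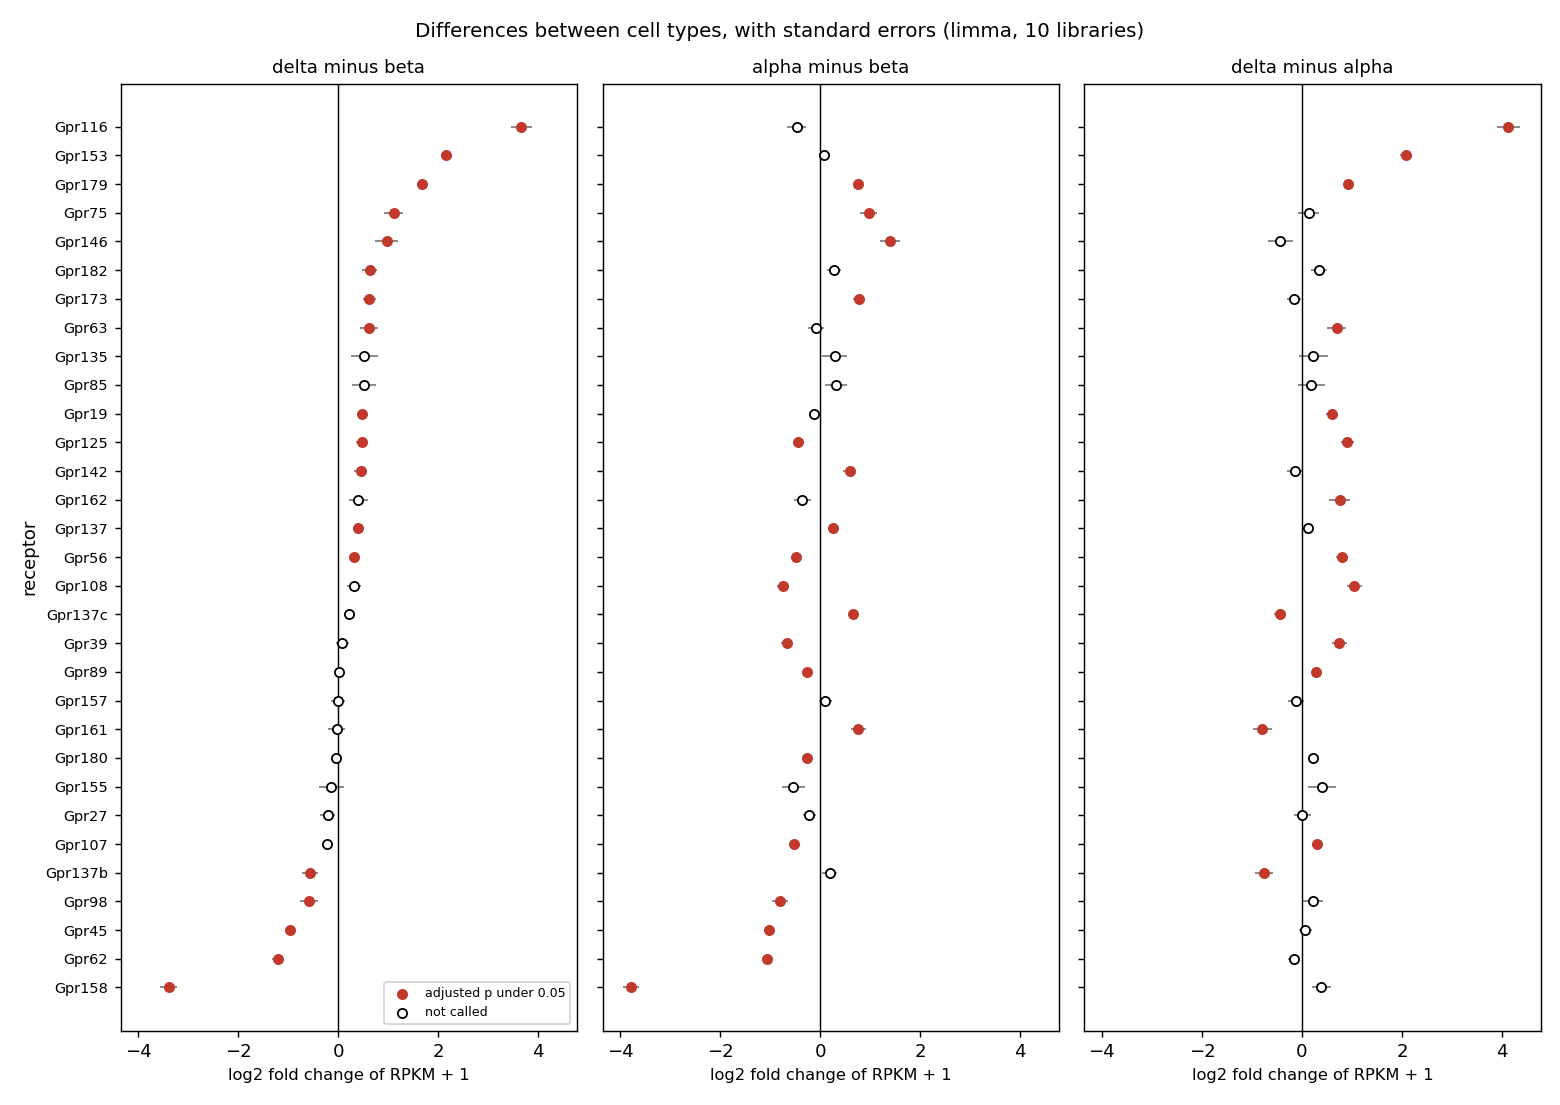
Log2 fold changes of RPKM + 1 with their standard errors for 31 tested receptors in the 3 comparisons, on a shared axis; filled points passed an adjusted p of 0.05. Gpr116, Gpr153 and Gpr158 stand farthest from 0, and most other receptors lie within 1 log2 unit of it.

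The class C orphans Gpr158 and Gpr179 were highest in different cell types. They are related receptors with large extracellular and intracellular ends that hold the complex of Rgs7, a regulator that shortens G protein signals, with the Gbeta protein Gnb5. Gpr158 is best known from neurons and Gpr179 from retinal bipolar cells. Promoters of this pair, and of Gpr116 and Gpr153, are shown because these 4 genes had the largest differences in the group and a mean below 1 RPKM in at least 1 cell type. Each sequence is the 250 bases before the RefSeq start, in GRCm38.p6 and read 5′ to 3′ on the strand of the gene: Gpr158 chr2:21367317-21367566 (plus strand), Gpr179 chr11:97352357-97352606 (minus strand), Gpr116 chr17:43360181-43360430 (plus strand, the first of its pair of starts) and Gpr153 chr4:152273862-152274111 (plus strand, the first of its pair of starts). Capitals mark the GC box GGGCGG on either strand and, in Gpr158, TTCAGCAC and GGACAGC, letters of the left and right parts of the RE1 element that the repressor REST binds.
Gpr158: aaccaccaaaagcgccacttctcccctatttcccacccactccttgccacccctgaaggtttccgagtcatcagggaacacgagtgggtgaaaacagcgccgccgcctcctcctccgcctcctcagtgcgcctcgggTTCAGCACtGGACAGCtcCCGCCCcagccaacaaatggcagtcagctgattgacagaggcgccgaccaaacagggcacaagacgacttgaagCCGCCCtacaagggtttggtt
Gpr179: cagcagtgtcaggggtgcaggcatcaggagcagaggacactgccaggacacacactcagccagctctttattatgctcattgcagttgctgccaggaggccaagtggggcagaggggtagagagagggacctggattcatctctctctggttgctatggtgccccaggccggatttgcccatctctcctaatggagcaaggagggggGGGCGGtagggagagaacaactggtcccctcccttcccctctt
Gpr116: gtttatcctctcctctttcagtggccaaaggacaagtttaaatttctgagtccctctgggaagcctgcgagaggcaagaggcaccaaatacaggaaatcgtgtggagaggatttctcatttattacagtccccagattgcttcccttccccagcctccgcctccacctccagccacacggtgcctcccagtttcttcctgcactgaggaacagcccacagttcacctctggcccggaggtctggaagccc
Gpr153: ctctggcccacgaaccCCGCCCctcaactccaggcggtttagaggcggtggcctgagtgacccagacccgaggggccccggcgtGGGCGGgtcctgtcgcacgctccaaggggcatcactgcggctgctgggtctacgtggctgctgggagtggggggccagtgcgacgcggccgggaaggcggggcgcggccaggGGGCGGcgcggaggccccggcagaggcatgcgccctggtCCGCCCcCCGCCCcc

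The GC box, read on either strand, was found 2 times for Gpr158, 5 times for Gpr153 and 1 time for Gpr179, and was not found in this window for Gpr116. It was present in 32.7% of 32817 RefSeq promoter windows of this length. On either strand, TTCAGCAC was present in 0.96% of them, the right part of the element in 5.28%, and both in 25 windows, 0.076%. This pair of words was searched after the Gpr158 sequence had been seen. In Gpr158 only 1 base lies between the words, and whether this is the spacing of the RE1 element was not tested. The count of windows with both words set no limit on their order or distance, so it is not a count of RE1 elements. Of 5 further words searched on both strands, the 4 windows held none: TATAAA was in 12.4% of all windows, the cyclic AMP response element TGACGTCA was in 1.55%, the Maf half-site TGCTGAC was in 3.81%, the homeodomain core TAATTA was in 4.85% and the E box CAGATG was in 14.5%. No marked word overlapped another. The number of CpG pairs was 14 for Gpr158, 2 for Gpr179, 5 for Gpr116 and 26 for Gpr153, and the observed to expected ratio was 0.656, 0.094, 0.281 and 0.708, beside a median of 0.373 over all windows. A matching word is a description of the letters and not evidence of binding. Of the 32 receptors, 27 had a promoter in the RefSeq table.

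Gpr158 (chr2:21367542-21830547, with 11 coding exons) was a beta cell transcript in these libraries. Its RPKM was 14.5, 24.4, 21.3, 24.5 and 24.0 in beta replicates 1 to 5, 1.17 and 1.03 in the delta libraries, and 0.386, 0.655 and 0.650 in the alpha libraries. Every beta library was above every other library, and beta replicate 1 was the lowest of the 5. The beta mean of 21.7 ± 4.25 (SD, n = 5) was 19.7 times the delta mean and 38.5 times the alpha mean. Gpr158 was lower in delta than beta cells by -3.39 on the log2(RPKM + 1) scale (SE 0.17, adjusted p 6.01e-07) and lower in alpha cells by -3.78 (SE 0.15, adjusted p 1.44e-07). Delta and alpha cells differed by 0.39 (SE 0.19, adjusted p 0.136), which was not called, although it was called with a pseudocount of 0.1 (0.84, adjusted p 0.0265) and without beta replicate 1 (0.42, adjusted p 0.0249). An antisense gene, Gm13327, overlaps exons of Gpr158 and the library kit keeps no strand.

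Gpr179 (chr11:97332109-97352077, minus strand, 11 coding exons) was highest in delta and lowest in beta cells. Its RPKM was 2.53 and 2.15 in delta cells, 0.724, 0.811 and 0.791 in alpha cells, and 0.0329, 0.0265, 0.0607, 0.0371 and 0.0848 in beta cells, where these values stood for 8, 6, 10, 8 and 21 reads. The 3 types did not overlap. Gpr179 was higher in delta than beta cells by 1.67 (SE 0.09, adjusted p 8.49e-07), higher in alpha than beta cells by 0.75 (SE 0.08, adjusted p 6.01e-05) and higher in delta than alpha cells by 0.91 (SE 0.10, adjusted p 0.000106). These differences are on the log2(RPKM + 1) scale, which understates the change of genes this low. Gpr179 passed the level limit through delta cells only, so its delta differences were partly set by the filter. Where Gpr179 was highest, Gpr158 was near 1 RPKM, and where Gpr158 was highest, Gpr179 was below 0.1 RPKM.

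The partner proteins of this pair were present in all 3 types. Rgs7 was at an RPKM of 26.4 and 24.7 in delta cells, 9.73 to 13.2 in beta cells and 9.83 to 12.4 in alpha cells, and was higher in delta than beta cells by 1.09 (SE 0.15, adjusted p 0.000369) and in delta than alpha cells by 1.10 (SE 0.17, adjusted p 0.000795). Gnb5 was at 15.9 and 16.1 in delta cells, 10.5 to 13.0 in beta cells and 10.9 to 11.9 in alpha cells, higher in delta than beta cells by 0.45 (adjusted p 0.00362). Neither differed between alpha and beta cells at the threshold (Rgs7 -0.00, SE 0.14, adjusted p 0.986; Gnb5 -0.04, SE 0.08, adjusted p 0.719).

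**Figure D2:**
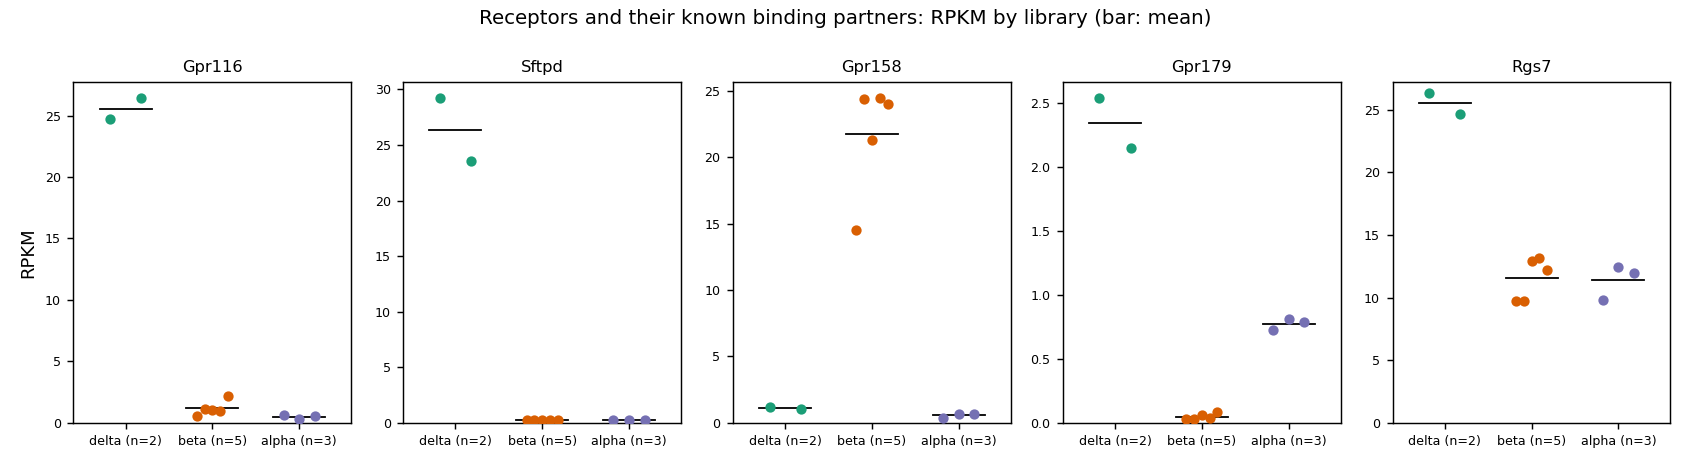
RPKM (linear axis from 0) of 3 receptors and 2 of their known binding partners in each library, with bars at the type means. Gpr116 and Sftpd are high in both delta libraries and near 0 to 2 RPKM elsewhere, Gpr158 in the beta libraries, and Rgs7 is about 25 RPKM in delta and 11 RPKM in the other types.

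The adhesion receptors with Gpr names numbered 16 in the table, of which 4 were tested. Of these 4, 3 were higher and 1 lower in delta than beta cells, 0 were higher and 3 lower in alpha than beta cells, and 3 were higher and 0 lower in delta than alpha cells. Of all tested genes, 37.4% and 13.3% were higher and lower in the first comparison, 23.7% and 30.3% in the second and 32.1% and 5.89% in the third. Their summed RPKM was 114 to 120 in delta, 68.1 to 83.2 in beta and 49.8 to 53.6 in alpha libraries, most of it Gpr56.

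Gpr116 (Adgrf5 in GENCODE, chr17:43360451-43459557, 20 coding exons) is an adhesion receptor of lung epithelium and of endothelium that controls the surfactant pool. It was at 24.7 and 26.4 RPKM in delta cells, 0.581, 1.17, 1.08, 0.938 and 2.22 in beta cells, and 0.618, 0.285 and 0.558 in alpha cells. Both delta libraries were more than 10 times the highest other library, beta replicate 5, while beta and alpha libraries overlapped. The delta mean of 25.6 ± 1.20 (SD, n = 2) was 21.4 times the beta mean and 52.5 times the alpha mean. Gpr116 was higher in delta than beta cells by 3.66 (SE 0.21, adjusted p 1.26e-06) and higher than in alpha cells by 4.12 (SE 0.23, adjusted p 1.92e-06). Alpha and beta cells differed by -0.46 (SE 0.19, adjusted p 0.0651), which was not called but passed with median-ratio scaling (adjusted p 0.0442), quantile normalization (0.00717), a pseudocount of 0.1 (0.04), no sex term (0.0426) and without beta replicate 1 (0.0349).

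Gpr116 is known from endothelium, and the summed level of 12 endothelial markers was 12.0 to 16.0 RPKM in delta, 6.90 to 13.7 in beta and 8.28 to 12.1 in alpha libraries. The defining markers stayed under the level limit. Pecam1 had a mean RPKM of 0.750 for delta, 0.637 for beta and 0.476 for alpha cells, Cdh5 of 0.232, 0.493 and 0.345, and Kdr of 0.194, 0.536 and 0.545. Of the 3 endothelial genes that could be tested, Egfl7 (4.32, 1.55 and 1.07 RPKM) was higher in delta than beta and than alpha cells (adjusted p 0.000592 and 0.000271), and Esam (7.56, 3.87 and 6.12) was higher in delta than beta cells (adjusted p 0.00114). The third, Plvap (0.416, 0.849 and 0.754), was lowest in delta cells and called in no comparison. Esam and Egfl7 had the highest delta means of the 12 markers and made up most of the delta sum. The part of endothelial genes in the Gpr116 difference was not tested.

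Sftpd, surfactant protein D, is a secreted lectin and a known ligand of Gpr116. It was at 29.2 and 23.5 RPKM in delta cells, 0.212 to 0.292 in beta cells and 0.223 to 0.259 in alpha cells. Both delta libraries were far above the other 8. Sftpd was higher in delta than beta cells by 4.43 (SE 0.11, adjusted p 2.12e-08) and than in alpha cells by 4.46 (SE 0.12, adjusted p 2.74e-07). Receptor and ligand were both at 20 RPKM or more in the delta libraries and below 3 RPKM in the others.

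Gpr56 is an adhesion receptor of neural progenitors, cytotoxic lymphocytes and islet cells that binds collagen III and transglutaminase 2. Its RPKM was 80.6 and 85.2 in delta cells, 66.9, 75.6, 69.6, 59.9 and 58.1 in beta cells, and 48.8, 48.8 and 44.8 in alpha cells. The 3 types did not overlap, but the ratio of the highest to the lowest type mean was under 2. It was lower in alpha than beta cells by -0.48 (SE 0.10, adjusted p 0.00292) and higher in delta than alpha cells by 0.80 (SE 0.12, adjusted p 0.000754). The delta difference from beta cells, 0.32 (SE 0.11, adjusted p 0.0342), was not called with median-ratio scaling (0.03, adjusted p 0.89), nor on leaving out delta replicate 1 (adjusted p 0.0832) or 2 (0.273), beta replicate 1 (0.0564), 4 (0.0618) or 5 (0.053), or alpha replicate 2 (0.0505). After subtraction of the Gcg-based alpha share the delta difference from beta cells was 0.26 (adjusted p 0.0822). With median-ratio scaling the delta difference from alpha cells was 0.50 (adjusted p 0.0658), and with quantile normalization the alpha difference from beta cells was -0.10 (adjusted p 0.42). Of its binding partners, Tgm2 was at a mean of 2.15, 1.93 and 0.302 RPKM in delta, beta and alpha cells, lower in alpha than beta cells by -1.12 (adjusted p 0.000663), and Col3a1 was below 0.21 RPKM in every library.

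Gpr125 (Adgra3, chr5:49959956-50059006), which acts with planar polarity and Wnt proteins, was at 5.44 and 5.22 RPKM in delta, 3.05, 3.54, 3.41, 4.36 and 3.76 in beta and 2.37, 2.26 and 2.38 in alpha cells. The types were ordered delta, beta, alpha without overlap. It was higher in delta than alpha cells by 0.91 (SE 0.13, adjusted p 0.000516). The differences of delta and of alpha cells from beta cells, 0.47 (adjusted p 0.00875) and -0.44 (adjusted p 0.00628), were not called without delta replicate 1 (0.38, adjusted p 0.125) and without alpha replicate 3 (-0.40, adjusted p 0.0579), respectively, and the first was 0.23 (adjusted p 0.105) with median-ratio scaling and 0.01 (adjusted p 0.975) with quantile normalization.

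Gpr98 (Adgrv1, chr13:81095068-81633154, 90 coding exons), a very large receptor needed in hair cell stereocilia, was highest in beta cells. It was at 0.781, 1.43, 1.13, 2.08 and 2.08 RPKM in beta, 0.673 and 0.529 in delta and 0.316, 0.392 and 0.320 in alpha cells. All beta libraries were above the others, beta replicate 1 by a small margin. The gene passed the level limit through beta cells only, so its beta differences were partly set by the filter. Gpr98 was lower in alpha than beta cells by -0.80 (SE 0.16, adjusted p 0.00293) and lower in delta than beta cells by -0.59 (SE 0.18, adjusted p 0.0248). Without delta replicate 2 the latter was -0.34 (adjusted p 0.291).

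The other 12 adhesion members stayed under the level limit. Gpr97 was at 1.24 and 0.773 RPKM in the delta libraries and below 0.61 elsewhere, and Gpr133 at 0.308 to 0.886 in beta cells. For comparison, of 13 adhesion receptors that the table lists under other names, 8 were tested: 6 were higher and 1 lower in delta than beta cells, 6 higher and 2 lower in alpha than beta cells, and 4 higher and 1 lower in delta than alpha cells, beside the same shares of all genes. The latrophilin Lphn2 was at 7.11 and 8.38 RPKM in delta, 0.0609 to 0.167 in beta and 0.559 to 0.715 in alpha cells (delta minus beta 2.96, adjusted p 6.67e-08), and Bai3 and Cd97 were higher in delta than beta cells by 1.94 (adjusted p 2.49e-06) and 1.51 (adjusted p 3.79e-06).

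A list of peptide or prohormone related orphans, which does not hold every class A orphan, had 20 genes, of which 9 were tested. Of these 9, 5 were higher and 2 lower in delta than beta cells, and 1 higher and 2 lower in alpha than beta cells. In delta against alpha cells 4 were higher and 0 lower. The shares of all tested genes were 37.4% and 13.3%, 23.7% and 30.3%, and 32.1% and 5.89%. Gpr153 (chr4:152274232-152285337, 5 coding exons) is an orphan related to Gpr162. It was at 3.17 and 4.21 RPKM in delta, 0.0202, 0.0217, 0.0895, 0.0342 and 0.0695 in beta and 0.159, 0.0627 and 0.0607 in alpha cells. These values stood for 242 and 295 reads in the delta libraries, 2 to 7 in the beta libraries and 4 to 10 in the alpha libraries, so beta and alpha cells were near the floor of detection. Gpr153 was higher in delta than beta cells by 2.16 (SE 0.11, adjusted p 4.99e-07) and than in alpha cells by 2.09 (SE 0.12, adjusted p 1.92e-06). Alpha and beta cells differed by 0.07 (SE 0.10, adjusted p 0.537). Gpr153 passed the level limit through delta cells only, so its delta differences were partly set by the filter. Over the 10 libraries the member most like Gpr153 in its pattern was Gpr116, with a Pearson r of 0.971 on the log2 scale, a description that rests on the 2 delta libraries. Schwann cell markers were also highest in delta cells, with a summed RPKM over 6 genes of 10.1 to 10.3 against 2.32 to 2.92 in beta and 4.91 to 5.45 in alpha libraries. Both of the markers that could be tested were higher in delta than beta cells, while Sox10 and Foxd3 were below 0.1 RPKM in every type mean. Its part in the delta differences was not tested.

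Its relative Gpr162 (chr6:124858444-124863983) was more even, at 3.46 and 2.19 RPKM in delta, 1.49 to 2.20 in beta and 0.829 to 1.76 in alpha cells. Delta was higher than alpha by 0.76 (SE 0.21, adjusted p 0.0196), but without delta replicate 1 the difference was 0.51 (adjusted p 0.242), and it was 0.55 (adjusted p 0.0954) with median-ratio scaling. Delta and beta libraries overlapped. Without alpha replicate 3, alpha was also called lower than beta cells (-0.66, adjusted p 0.0111) and delta higher than beta cells (0.38, adjusted p 0.0468).

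Gpr45 and Gpr62, class A orphans of brain, were also highest in beta cells. Gpr45 (chr1:42952872-43035456) was at 1.17, 1.42, 1.60, 1.73 and 1.80 RPKM in beta, 0.256 and 0.335 in delta and 0.171, 0.246 and 0.238 in alpha cells. Gpr62 (chr9:106463962-106465938) was at 2.23, 1.57, 2.16, 1.85 and 1.21 RPKM in beta, 0.325 and 0.136 in delta and 0.514, 0.478 and 0.260 in alpha cells. Each gene was higher in all 5 beta libraries than in any other. Gpr45 was lower in delta than beta cells by -0.96 (SE 0.11, adjusted p 0.000122) and in alpha than beta cells by -1.03 (SE 0.10, adjusted p 3.11e-05). For Gpr62 these differences were -1.21 (SE 0.11, adjusted p 3.06e-05) and -1.05 (SE 0.10, adjusted p 3.05e-05). Neither gene was called between delta and alpha cells. Both passed the level limit through beta cells only, so their beta differences were partly set by the filter. Gpr45 followed Gpr158 over the 10 libraries with a Pearson r of 0.992, again a description of 3 groups of libraries, and exons of Pcbp4 on the opposite strand overlap Gpr62.

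Immune markers were also higher in beta libraries. Of 12 tested, 11 were lower in delta and 12 lower in alpha than beta cells, and 1, C1qa, was higher in delta cells. Their summed RPKM over 16 genes was 126 to 242 in beta, 76.5 to 89.9 in delta and 24.7 to 44.6 in alpha libraries, with Ptprc below 0.5 in every library. Their part in the receptor differences was not tested.

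Gpr146 (chr5:139377697-139396415), an orphan linked to cholesterol handling in liver, was lowest in beta cells. It was at 5.18 and 5.89 RPKM in delta, 1.78, 2.04, 3.15, 2.08 and 3.03 in beta and 5.34, 9.12 and 9.29 in alpha cells. Alpha replicate 1 lay among the delta libraries, and all beta libraries were below both other types. Gpr146 was higher in alpha than beta cells by 1.40 (SE 0.20, adjusted p 0.000391) and in delta than beta cells by 0.97 (SE 0.23, adjusted p 0.0070). The delta difference was 0.99 (adjusted p 0.0601) without delta replicate 1 and 0.95 (adjusted p 0.0627) without delta replicate 2. Delta minus alpha was -0.44 (SE 0.25, adjusted p 0.198), and was called lower with median-ratio scaling (-0.70, adjusted p 0.0294), quantile normalization (-0.81, adjusted p 0.00847) and the hormone genes left out (-0.74, adjusted p 0.0465). The delta mean was 69.9% of the alpha mean.

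Gpr182 (chr10:127747276-127751732), an atypical receptor that takes up chemokines in lymphatic and sinusoidal endothelium, was at 4.35 and 4.16 RPKM in delta, 1.74 to 2.90 in beta and 2.94 to 3.45 in alpha cells. It was higher in delta than beta cells by 0.63 (SE 0.15, adjusted p 0.00718), with an adjusted p of 0.0683 without delta replicate 1, 0.0577 without delta replicate 2 and 0.333 with quantile normalization. Zbtb39 exons on the opposite strand overlap it. Gpr19 (chr6:134869093-134898578), proposed as a receptor of a secreted peptide, was at 13.1 and 14.2 RPKM in delta, 8.54 to 10.7 in beta and 8.21 to 9.01 in alpha cells. It was higher in delta than beta cells by 0.48 (adjusted p 0.00509) and in delta than alpha cells by 0.61 (adjusted p 0.00305), neither of which was called with median-ratio scaling (0.20, adjusted p 0.258, and 0.32, adjusted p 0.171), and the first was not called without delta replicate 2 (adjusted p 0.0812). Gpr63 was at 2.38 and 1.82 RPKM in delta, 0.579 to 1.36 in beta and 0.708 to 1.07 in alpha cells. Its delta differences of 0.62 from beta (adjusted p 0.0169) and 0.70 from alpha cells (adjusted p 0.0187) were not called without delta replicate 1 (0.42, adjusted p 0.217, and 0.47, adjusted p 0.233), nor the second without alpha replicate 1 (adjusted p 0.0531) or 3 (0.0744). Gpr135 was at 2.09 and 1.29 RPKM in delta, 0.506 to 2.13 in beta and 1.08 to 1.42 in alpha cells, and was called in no comparison of all 10 libraries.

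**Figure D3:**
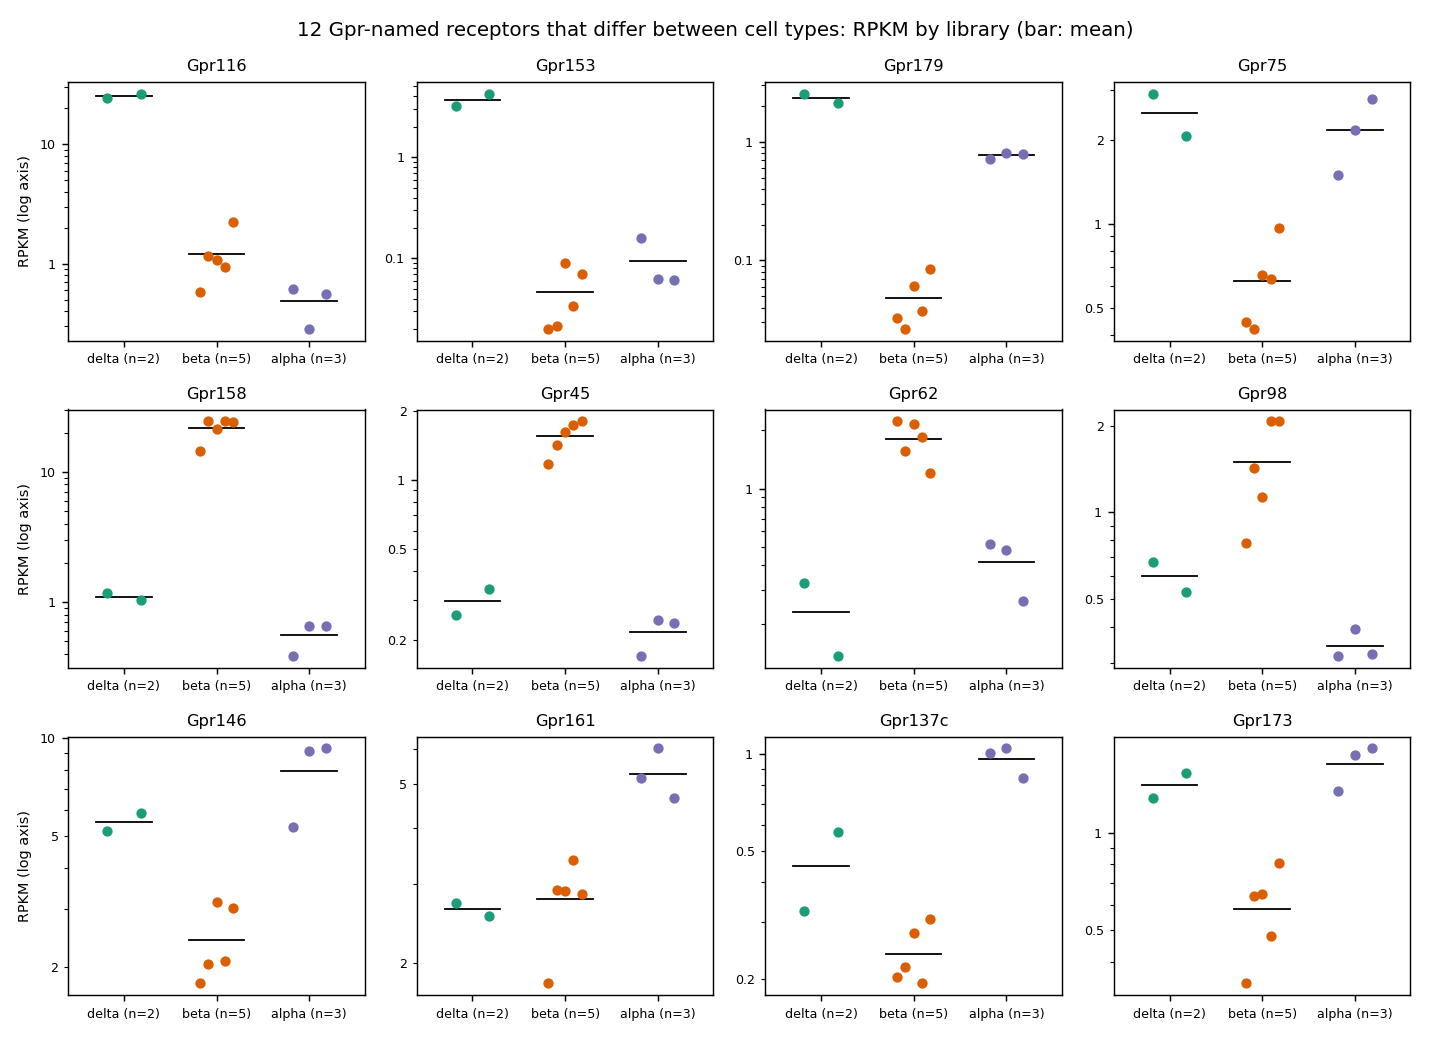
RPKM on a log axis in each library for 12 receptors, grouped by cell type, with bars at the type means. Gpr116, Gpr153 and Gpr179 are highest in delta, Gpr158, Gpr45, Gpr62 and Gpr98 in beta, and Gpr161 and Gpr137c in alpha cells. Gpr75, Gpr146 and Gpr173 are lowest in beta cells, with delta and alpha libraries that overlap.

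Gpr142 (chr11:114798924-114806745), a receptor of tryptophan and other aromatic amino acids known from islets, was expressed in all 3 types. It was at 8.52 and 8.88 RPKM in delta, 4.59 to 6.92 in beta and 9.39 to 10.8 in alpha cells. It was higher in alpha than beta cells by 0.59 (SE 0.12, adjusted p 0.00336). The delta difference from beta cells of 0.45 (SE 0.14, adjusted p 0.0251) was not called with median-ratio scaling (0.18, adjusted p 0.395), with the hormone genes left out (adjusted p 0.225), after subtraction of the Gcg-based alpha share (0.0838), or without delta replicate 1 (0.0743) or 2 (0.223).

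Gpr39 (chr1:125676995-125873862), a zinc receptor, was lowest in alpha cells, at 1.16, 1.63 and 1.30 RPKM, against 2.35, 2.56, 3.14, 2.96 and 2.93 in beta and 2.61 and 3.40 in delta cells. It was lower in alpha than beta cells by -0.66 (SE 0.12, adjusted p 0.00157) and higher in delta than alpha cells by 0.75 (SE 0.15, adjusted p 0.00383). The latter was 0.62 (adjusted p 0.0501) without delta replicate 2. Exons of Lypd1 on the opposite strand overlap it.

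Gpr75 (chr11:30885358-30893729), a receptor with proposed lipid and chemokine ligands, was low in beta cells alone of the 3 types. It was at 0.444, 0.420, 0.655, 0.633 and 0.962 RPKM in beta, 2.91 and 2.06 in delta and 1.497, 2.17 and 2.81 in alpha cells. The beta libraries were below all others and the delta and alpha libraries overlapped. Gpr75 was higher in delta than beta cells by 1.11 (SE 0.19, adjusted p 0.00128) and in alpha than beta cells by 0.98 (SE 0.17, adjusted p 0.00114). Delta and alpha cells differed by 0.14 (SE 0.21, adjusted p 0.637). It shares exon positions with Asb3 on the same strand, and the sources used here do not say how reads were assigned between such genes. Its proposed ligand Ccl5, a chemokine of immune cells, was at a mean of 15.2 RPKM in beta cells, 1.32 in delta cells and 0.480 in alpha cells, and was lower in delta than beta cells by -2.78 (adjusted p 3.57e-05) and in alpha than beta cells by -3.48 (adjusted p 3.60e-06). Receptor and proposed ligand were highest in different libraries.

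The brain receptors Gpr27, Gpr85 and Gpr173 form a conserved orphan family, SREB. Gpr85 was at 9.24 and 9.12 RPKM in delta, 4.23 to 9.20 in beta and 7.37 to 8.51 in alpha cells, and Gpr27 at 6.99 and 7.04 in delta, 6.86 to 9.78 in beta and 5.88 to 8.37 in alpha cells. Neither was called in any comparison of the 10 libraries. Without beta replicate 4, Gpr85 was called higher in delta than beta cells (0.63, adjusted p 0.0398), and with median-ratio scaling Gpr27 was called lower (-0.47, adjusted p 0.00895). Gpr173 (X chromosome, 152343598 to 152368704) was lower than both, at 1.28 and 1.52 RPKM in delta, 0.344, 0.637, 0.648, 0.482 and 0.805 in beta and 1.34, 1.73 and 1.82 in alpha cells. It was lowest in all 5 beta libraries, and was higher in alpha than beta cells by 0.77 (SE 0.11, adjusted p 0.000379) and in delta than beta cells by 0.62 (SE 0.12, adjusted p 0.00318), the latter 0.18 (adjusted p 0.17) with quantile normalization. Its pattern was most like that of Gpr146, with a Pearson r of 0.976 over the 10 libraries.

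Gpr161 (chr1:165295789-165326745), a ciliary receptor that holds back Hedgehog signalling through cyclic AMP, was highest in alpha cells. It was at 5.15, 6.01 and 4.66 RPKM in alpha, 2.72 and 2.55 in delta and 1.81, 2.91, 2.90, 3.39 and 2.85 in beta cells. All alpha libraries were above all others, and delta and beta libraries overlapped. Gpr161 was higher in alpha than beta cells by 0.76 (SE 0.15, adjusted p 0.00260) and lower in delta than alpha cells by -0.79 (SE 0.19, adjusted p 0.00919). The latter was -0.89 (adjusted p 0.0501) without delta replicate 1 and -0.71 (adjusted p 0.0783) without delta replicate 2. Tulp3, which carries Gpr161 into cilia, was at a mean of 12.3, 9.70 and 9.17 RPKM in delta, beta and alpha cells.

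A list of intracellular or other multi-pass proteins with Gpr names held 10 genes, among them Gpr157, described above as a receptor. Of the 10, 9 were tested. In delta against beta cells 1 was higher and 1 lower, in alpha against beta cells 2 were higher and 4 lower, and in delta against alpha cells 3 were higher and 2 lower. Called higher and lower among all tested genes were 37.4% and 13.3%, 23.7% and 30.3%, and 32.1% and 5.89%. Gpr108 (chr17:57234635-57248446), a Golgi protein, was at 37.4 and 36.7 RPKM in delta, 30.7, 38.3, 26.6, 27.3 and 27.3 in beta and 17.6, 17.1 and 17.3 in alpha cells. The alpha libraries were below all others. It was lower in alpha than beta cells by -0.73 (SE 0.12, adjusted p 0.000901) and higher in delta than alpha cells by 1.05 (SE 0.15, adjusted p 0.000595). Without beta replicate 2 it was also called higher in delta than beta cells (0.40, adjusted p 0.00619).

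Its relative Gpr107 (chr2:31152316-31218775) was at 21.2 and 20.5 RPKM in delta, 22.7 to 27.1 in beta and 15.6 to 17.2 in alpha cells, and was lower in alpha than beta cells by -0.52 (SE 0.08, adjusted p 0.00076). Delta was higher than alpha by 0.30 (adjusted p 0.0442), a difference of 0.01 (adjusted p 0.981) with median-ratio scaling and of -0.00 and -0.01 with the hormone genes left out and with quantile normalization. Gpr89 (chr3:96868281-96905346), which keeps the Golgi acidic, was at 14.2 and 16.2 RPKM in delta, 13.5 to 16.5 in beta and 11.4 to 12.9 in alpha cells. It was lower in alpha than beta cells by -0.26 (adjusted p 0.0160), and the delta difference from alpha cells of 0.28 (adjusted p 0.0382) was -0.01 (adjusted p 0.951) with median-ratio scaling. Gpr180 was at 14.4 and 14.2 RPKM in delta, 13.8 to 16.1 in beta and 11.7 to 13.3 in alpha cells, lower in alpha than beta cells by -0.25 (adjusted p 0.0309). The delta minus alpha calls of Gpr107 and Gpr89 were lost without either delta library, without any 1 of the alpha libraries and without beta replicate 3, and that of Gpr89 also without beta replicate 4 or 5. The alpha minus beta call of Gpr180 was lost without beta replicate 3 (adjusted p 0.0598), alpha replicate 1 (0.098) or alpha replicate 3 (0.168), and that of Gpr89 without alpha replicate 3 (-0.23, adjusted p 0.11). The last was also lost with quantile normalization (adjusted p 0.0636), with the hormone genes left out (0.079) and with libraries of a shared title number averaged (0.056).

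The lysosomal family of Gpr137 differed among its members. Gpr137b (chr13:13357620-13394014) was at 2.26 and 2.55 RPKM in delta, 3.07, 3.69, 3.93, 5.77 and 4.34 in beta and 4.16, 5.19 and 4.62 in alpha cells, so that both delta libraries were lowest. It was lower in delta than beta cells by -0.56 (SE 0.17, adjusted p 0.0208) and than in alpha cells by -0.76 (SE 0.18, adjusted p 0.0104). Neither was called without delta replicate 1 (-0.60, adjusted p 0.11, and -0.80, adjusted p 0.0715) or on leaving out delta replicate 2 (-0.53, adjusted p 0.134, and -0.73, adjusted p 0.0725). Its value is uncertain because of a pseudogene copy, Gpr137b-ps, listed at 2.81 and 2.98 RPKM in delta, 5.54 to 10.7 in beta and 4.80 to 5.60 in alpha cells. Gpr137c (chr14:45219717-45282725) was at 0.324 and 0.573 RPKM in delta, 0.194 to 0.307 in beta and 1.01, 1.04 and 0.845 in alpha cells. It passed the level limit through alpha cells only, so its alpha differences were partly set by the filter. It was higher in alpha than beta cells by 0.67 (SE 0.09, adjusted p 0.000310) and lower in delta than alpha cells by -0.45 (SE 0.11, adjusted p 0.0133), the latter not called without delta replicate 1 (-0.29, adjusted p 0.192). Gpr137 itself was at 12.5 and 12.1 RPKM in delta, 7.68 to 9.83 in beta and 10.9 to 11.9 in alpha cells. It was higher in delta than beta cells by 0.39 (adjusted p 0.0136), which was 0.12 (adjusted p 0.481) with median-ratio scaling and had an adjusted p of 0.0898 without delta replicate 1 and 0.104 without delta replicate 2. Its alpha difference from beta cells, 0.27 (adjusted p 0.0397), was not called in 8 of the 10 fits that left out 1 library. Gpr155, also lysosomal and a sensor of cholesterol, was at 1.31 to 4.26 RPKM over the beta libraries and was called in no comparison of all 10 libraries; without beta replicate 1 it was called lower in alpha than beta cells (-0.75, adjusted p 0.00913).

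Sex was a term of the fit. No receptor was called between female and male libraries by limma; 2 of 32 were at an unadjusted p under 0.05, the lowest adjusted p was 0.77, and 6 of all 12700 genes, 0.0472%, were called. In the 8 alpha and beta libraries no receptor and no other gene (0%) was called for an interaction of cell type and sex; 1 receptor, Gpr162, was at an unadjusted p under 0.05 (interaction 0.70, SE 0.25, unadjusted p 0.0275, adjusted p 1). With 1 female alpha library and 1 delta library per sex these tests were weak.

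The 49 members below the level limit were not absent as a class: 0 of them were at 0 in every library, 20 were below 0.1 RPKM in every library, and Gpr183 and Gpr97 reached 1 in 1 library. The 8 listed receptors of immune cells all stayed below the limit, with a sum of 1.11 to 1.51 RPKM in delta, 0.816 to 1.11 in beta and 0.270 to 1.06 in alpha libraries. Gpr183, an oxysterol receptor of B cells, was at 0.807 and 1.08 RPKM in delta, 0.0574 to 0.127 in beta and 0.0407 to 0.312 in alpha cells. The complement gene C1qa was at a mean of 65.6, 28.9 and 14.2 RPKM in delta, beta and alpha cells. Of the 12 immune markers tested it was the 1 called higher in delta than beta cells, and 11 were lower. C1qb and C1qc were at 0.0486 and 0.0766 RPKM in delta cells, against 7.71 and 4.55 in beta cells, and Ptprc was at 0.00440 in delta cells. Gpr84, a receptor of medium-chain fatty acids in myeloid cells, was at 0.574 and 0.937 RPKM in delta cells and below 0.1 in all others. The 6 listed receptors known for constant Gs activity also stayed below it, at a sum of 0.464 to 0.766 RPKM in delta, 0.462 to 0.899 in beta and 0.291 to 0.369 in alpha libraries. Gpr3, which raises cyclic AMP without a known ligand, was the highest of them in beta cells, at 0.262 to 0.683 RPKM. Gpr1 was at 0.358 and 0.419 RPKM in delta, 0.367 to 0.659 in alpha and 0 to 0.125 in beta cells. Gpr25 was at 0.229 to 0.642 RPKM in beta cells and below 0.14 in the others. These values carry no test.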

How the data were processed

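Per the labels' protocols, RNA of FACS-sorted delta, beta and alpha cells was made into libraries with the TruSeq RNA kit, version 2, which keeps no strand. The authors deposited 1 table of RPKM values for 10 libraries. The submitters' processing notes name the build GRCm38.p3 and the tools STAR 2.4, featureCounts and edgeR 3.12.0, with no role given. The annotation and the treatment of multi-mapped reads were not stated in them. RPKM are shares of a library, so abundant hormone transcripts lower all other values.

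Library totals were recovered from the smallest steps of the values: 19211 of 19213 genes came out at whole reads within 0.05. The tests used limma 3.58.1 (R 4.3.3) on log2(RPKM + 1), a trended prior variance, and terms for cell type and sex; a gene needed 1 RPKM or more in 2 libraries. Benjamini-Hochberg adjustment ran over all 12700 genes of a comparison. The fit had 6 residual and 3.16 prior degrees of freedom. The interaction with sex used alpha and beta libraries. The script was tested on simulated data. Replicates are numbered in accession order, and no library was left out or imputed.

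Values in every library were given for up to 6 called members with the largest difference per direction and comparison and for the 6 highest members; the other passing members are given as ranges, in places in full. Partners and other adhesion receptors were named by the smallest adjusted p, or by the highest mean among those not called. Tgm2, Col3a1, Tulp3, Rgs7 and Gnb5 in the delta comparisons and the members below the limit other than Gpr183, Gpr97 and Gpr133 were named after their values were seen. A few genes count in the totals and list sums but are not reported here, and 1 member is not drawn. The members and lists were chosen with earlier results of these data known.

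Coordinates are 1-based, from GENCODE of GRCm38, matched by symbol or current symbol for 80 of 81 members. Exons of 14 of the 32 receptors share positions with another gene, so their reads may be mixed. Promoters are RefSeq's in GRCm38.p6. Alternatives changed the pseudocount (0.1 or 0.5), the level limit (none, or 5), the scaling (median ratio, quantiles, the 7 hormone genes left out), the alpha share measured by Gcg, the sex and trend terms, and libraries with a shared title number (9 and 9b, 12 and 12b), or left out each library.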

Additional observations from a re-analysis of the deposited data

Results flagged for a closer look

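Over the 32 receptors, the 5 beta libraries were searched for a single library far from the rest. Gpr135 was at 2.13 RPKM in beta replicate 4 and at 0.506 to 0.779 in the other 4. Without beta replicate 4, Gpr135 was called higher than in beta cells in delta (0.71, adjusted p 0.00346) and alpha cells (0.45, adjusted p 0.0136). Gpr137 was at 7.68 RPKM in beta replicate 4 and at 9.28 to 9.83 in the others. Without beta replicate 4, its difference between alpha and beta cells was 0.23 (adjusted p 0.0538). Gpr157 was at 2.05 RPKM in beta replicate 2 and at 1.15 to 1.32 in the others. Chance marks about 1 in 20 such groups.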

How the results depend on the processing

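The 33 differences chosen as the largest called ones of each comparison and direction kept their direction in all 674 alternative fits, and in 20 of these passed the threshold no longer, most of them fits without a delta library. Among the other differences called in the main fit, those of Gpr107 and Gpr89 between delta and alpha cells changed sign. They moved with quantile normalization to -0.01 and -0.03, with the hormone genes left out to -0.00 and -0.03, and for Gpr89 with median-ratio scaling to -0.01. Some differences that were not called also changed sign, such as that of Gpr75 between delta and alpha cells. Counts of calls moved more. With no level limit, over 81 members, 26 were higher and 11 lower in delta than beta cells, where 5273 and 1954 of all 19213 genes were. In alpha against beta cells the counts were 16 and 20, beside 3649 and 4270 of all genes. In delta against alpha cells 20 were higher, beside 4410 of all genes. With a limit of 5 RPKM fewer were tested, 16 members among 9783 genes. Then 7 members were higher and 2 lower in delta than beta cells, beside 3443 and 1375 of all genes. In alpha against beta cells the counts were 4 and 7, beside 2026 and 3332. In delta against alpha cells they were 7 and 2, beside 3346 and 479. With quantile normalization 6 were higher and 11 lower in delta than beta cells, beside 2852 and 3200 of 12700 genes. Median-ratio scaling gave 9 higher in delta than beta cells and 7 higher in delta than alpha cells, beside 3120 and 1846 of all genes. Leaving out the hormone genes gave 7 for the latter, beside 1869 of all genes. With the Gcg-based alpha share subtracted, 11 were higher and 6 lower in delta than beta cells, beside 3881 and 2167 of all genes. For delta against alpha cells the counts were then 10 and 4, beside 3205 and 994. The cause was not tested.

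Leaving out 1 beta or alpha library gave 12 to 15 receptors higher in delta than beta cells and 5 lower. Over all genes these counts were 4268 to 4987 and 1534 to 1677. In alpha against beta cells they were 8 to 9 and 9 to 13, beside 1838 to 3222 and 2784 to 4002 of all genes. In delta against alpha cells they were 9 to 13 and 3 to 4, beside 2790 to 4595 and 564 to 787 of all genes. Sex and the interaction gave 0. Calls kept under every alternative were counted for the receptors only. The lowest counts in the delta comparisons came without a delta library, where the lone delta library is assumed to vary like the other groups. No paired analysis was run, because the labels give no replicate numbers that groups share. Some beta libraries have title numbers next to that of a delta or alpha library of the same sex. The labels do not say whether these came from the same islets, and any such pairing was not modelled. Low counts limit Gpr153 and Gpr179 in beta cells.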
